A study of Mus musculus with 6 samples.

Results

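The genes of basement membrane collagen IV, the main laminin chains, nidogen-1 and perlecan were followed in intervertebral discs (IVDs) of young mice. The rule was a list of names: Col4a1 and Col4a2, Lama2, Lama4, Lama5, Lamb1, Lamb2, Lamc1, Nid1 and Hspg2. All 10 were found among the 43472 gene symbols of the count tables, and all 10 were among the 16152 genes with enough counts to be tested. RNA was sequenced from 6 pools of IVDs, 3 of Col2Cre;Adgrg6 f/f mutant mice and 3 of Cre (-) littermate controls, which the genotype labels call wild type and the titles call Col2Cre controls. In the mutant mice, Cre driven by Col2 removes the floxed Adgrg6 gene (Gpr126 in the titles and in the count tables) from the IVD during embryonic development, and reporter staining in the study also placed recombination in the periosteum. Every pool held discs from T8 to L5 of 2 to 3 mice of strain C57B6/J at postnatal day 20, without any other treatment, and no sex was given. Pools of separate mice served as replicates.

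A basement membrane is a thin sheet of matrix on which epithelial and endothelial cells rest and which wraps muscle, fat and Schwann cells. Laminins, each a trimer of an α, a β and a γ chain, assemble on the cell surface, and collagen IV, built mostly from the α1 and α2 chains, forms a second network that nidogen and perlecan tie to the laminin layer. In cartilage the same proteins occur around single chondrocytes, where perlecan, the product of Hspg2, is a main heparan sulfate proteoglycan. Collagen IV and laminin of the α2 chain (laminin-211) are reported ligands of ADGRG6, an adhesion G protein-coupled receptor, which is why the genes of its surroundings are of interest in discs that lack it.

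Collagen IV lies on chromosome 8 as a pair of genes that point away from each other, Col4a1 at chr8:11198423-11312826 on the minus strand and Col4a2 at chr8:11312805-11449287 on the plus strand of GRCm38 (GENCODE M21). Their annotated starts overlap by 22 bases. The stretch is shown because it belongs to both genes at once. Read on the plus strand from the RefSeq sequence of GRCm38.p6 at chr8:11312801-11312830, with the 22 bases between the start of Col4a2 and that of Col4a1 in capitals, it reads:
Col4a1 and Col4a2: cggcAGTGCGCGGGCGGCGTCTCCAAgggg

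RefSeq promoter windows, from 250 bases before to 50 after a start, were at hand for 8 of the 10 genes, the exceptions being Lama4 and Lamc1. The GC box letters GGGCGG, searched on both strands, occurred in 7 of the 8 windows, the exception being Lamb2, and in 35.7% of all 32851 RefSeq windows of this length. The windows of Col4a1 and Col4a2 share 78 bases, and the single match of Col4a1 is the one in the stretch printed above, so it counts for both genes. CCAAT was present in 4 windows, those of Col4a1, Col4a2, Lamb1 and Nid1, against 37.4% of all windows. TATAAA was present in 0 of 8, against 13.6%. Upstream sequence is printed for a laminin gene with higher and one with lower values in mutants, Lamb1 and Lama2, and for Hspg2, the gene with the highest level. Capitals mark GGGCGG or its reverse complement CCGCCC, and CCAAT. Lamb1 is from chr12:31265043-31265233 on the plus strand, Lama2 from chr10:27616943-27617192 on the minus strand, with a RefSeq start that lies inside a longer GENCODE gene, and Hspg2 from chr4:137468553-137468768 on the plus strand.
Lamb1: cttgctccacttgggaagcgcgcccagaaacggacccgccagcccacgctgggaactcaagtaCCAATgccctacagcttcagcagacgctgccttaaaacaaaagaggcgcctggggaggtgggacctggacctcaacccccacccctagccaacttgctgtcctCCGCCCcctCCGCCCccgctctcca
Lama2: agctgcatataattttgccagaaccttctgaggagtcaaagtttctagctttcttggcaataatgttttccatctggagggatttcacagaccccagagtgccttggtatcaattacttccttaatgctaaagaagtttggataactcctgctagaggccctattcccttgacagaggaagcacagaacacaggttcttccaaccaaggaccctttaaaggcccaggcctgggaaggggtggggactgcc
Hspg2: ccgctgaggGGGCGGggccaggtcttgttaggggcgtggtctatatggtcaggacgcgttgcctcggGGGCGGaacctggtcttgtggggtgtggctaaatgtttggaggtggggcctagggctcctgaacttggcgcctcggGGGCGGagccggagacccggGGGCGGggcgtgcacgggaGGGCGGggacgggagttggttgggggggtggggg
The stretch of Hspg2 held 5 matches to the GC box letters and 70.8% G and C bases, that of Lamb1 held 2 matches, and that of Lama2 held none and 47.2% G and C bases. The whole window of Lama2 held 1 match and 50.3% G and C bases, and that match is not within the printed stretch. A match describes the letters in the window and is not a binding site.

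The libraries held 9061491 to 12017008 counts on genes, and intervals from such counts would cover counting error only. Control replicate 1 stood apart from the other 5 libraries by its skeletal muscle genes, whose 12 markers summed to 5496 CPM there (counts per 1e06 counts on genes, with library sizes scaled by TMM) and to 220 to 338 CPM elsewhere. The 11 chondrocyte markers summed to 91400 to 154900 CPM, most of which was Col2a1. The 8 nucleus pulposus markers summed to 1156 to 2322 CPM. Krt19 and Krt8 had the highest means in both genotypes, and Noto was at or near 0. Control replicate 3 lay furthest out on the first principal component of log2 CPM (41.2% of the variance) and had the lowest median correlation with the other libraries, 0.931 against 0.943 to 0.953. Without it, 0 of the 10 genes described here had an unadjusted p under 0.05 by edgeR. The targeted gene, listed as Gpr126, was at 124, 108 and 94.3 CPM in the controls and at 138, 124 and 106 CPM in the mutants, a log2 fold change of 0.17 (SE 0.18, unadjusted p = 0.367). A count summed over the whole gene does not measure the deleted part, so these values do not check the genotype.

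Across the 10 genes, 8 had a higher and 2 a lower mean in mutant discs, and their median log2 fold change was 0.31 beside -0.01 for all genes tested. That median was 0.14 with mutant replicate 1 left out and 0.53 with control replicate 1 left out. By the quasi-likelihood test of edgeR, Col4a1, Col4a2, Lamb1 and Lamc1 were higher and Lama2 lower at an unadjusted p under 0.05. Of all genes tested, 2.89% were called higher and 4.32% lower by that rule. None of the 10 passed at an adjusted p under 0.05 by edgeR, DESeq2 or limma-voom. The smallest adjusted p of edgeR was 0.676, and edgeR called 0.00619% of all genes tested. At the same threshold DESeq2 called 58 of the 16152 genes and limma-voom 0. All 3 mutant libraries lay above all controls for Col4a2, Lamb1 and Lamc1, as for 5.45% of genes, and below them for Lama2, as for 5.96%. In what follows, a log2 fold change is that of mutant over control with its standard error, an unadjusted p comes from the same test, and libraries are given in the order of replicates 1, 2 and 3.

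**Figure D1:**
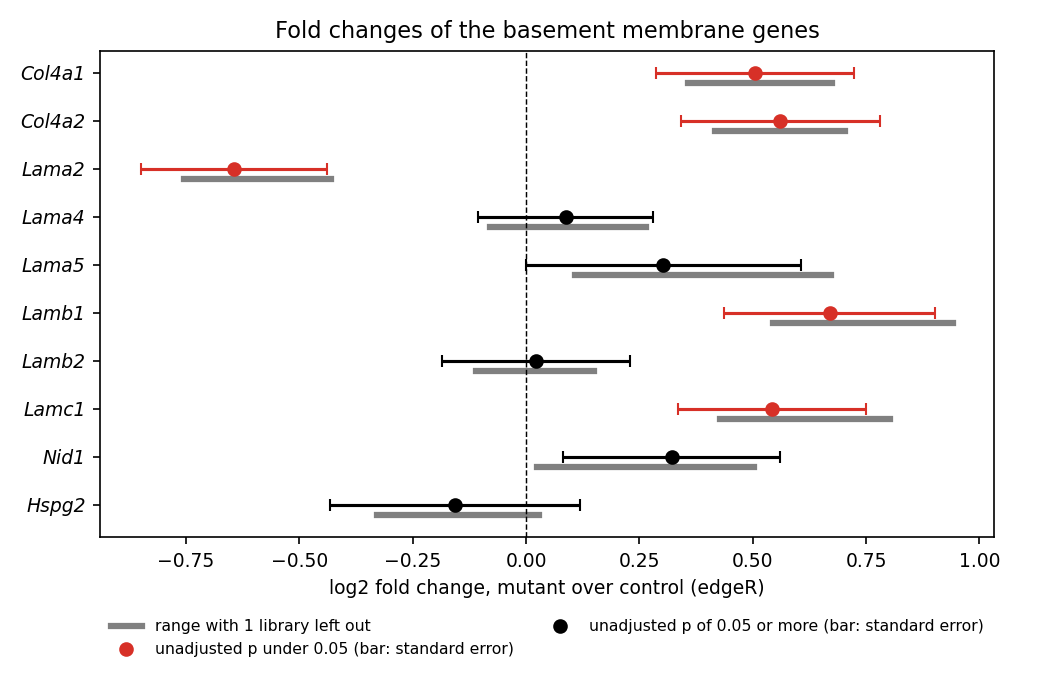
Log2 fold change of mutant over control for the 10 genes, as points with bars of 1 standard error (edgeR, 3 libraries per genotype, red where the unadjusted p was under 0.05) and grey bars for the range with 1 library left out. Lamb1 (0.67), Col4a2 (0.56), Lamc1 (0.54) and Col4a1 (0.50) lie to the right of 0 and Lama2 (-0.65) to the left, while the standard error bars of Lama4, Lamb2 and Hspg2 span 0 and that of Lama5 reaches it.

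Both collagen IV chains were higher in mutant discs. Col4a2, the α2 chain, was at 324, 305 and 221 CPM in the controls and at 450, 340 and 465 CPM in the mutants, without overlap, although control replicate 1 and mutant replicate 2 lay close together. Its log2 fold change was 0.56 (SE 0.22, unadjusted p = 0.0288, adjusted p = 0.676). Col4a1, the α1 chain, was at 283, 243 and 183 CPM against 359, 276 and 370 CPM, so that mutant replicate 2 fell just under control replicate 1. The log2 fold change of Col4a1 was 0.50 (SE 0.22, unadjusted p = 0.0438). Both calls were lost when some libraries were left out, with log2 fold changes that ranged from 0.42 to 0.70 for Col4a2 and from 0.36 to 0.67 for Col4a1 over the 6 omissions. Without control replicate 3, the lowest control for both genes, the unadjusted p was 0.101 for Col4a2 and 0.146 for Col4a1, and it was also above 0.05 for both without mutant replicate 1 (0.0662 and 0.0935) or mutant replicate 3 (0.0951 and 0.130), and for Col4a1 without control replicate 2 (0.0778).

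The 2 chains kept nearly the same proportion in all 6 libraries of the data set; in the protein, α1 and α2 chains join in 1 trimer. Per kilobase of exon, Col4a1 stood at 0.774, 0.707 and 0.734 of Col4a2 in the controls and at 0.709, 0.722 and 0.706 in the mutants. The log2 ratio differed by -0.05 between genotypes (two-sided exact permutation test, p = 0.3). Each gene has an antisense gene within it. Gm15418, on the opposite strand within Col4a1 and without shared exon bases, held 7886 counts over the 6 libraries beside 17197 for Col4a1, with a log2 fold change of 0.47 (unadjusted p = 0.0551). Gm15419, which shares 43 exon bases with Col4a2, held 1766 counts beside 21083, with a log2 fold change of 0.40 (unadjusted p = 0.111).

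**Figure D2:**
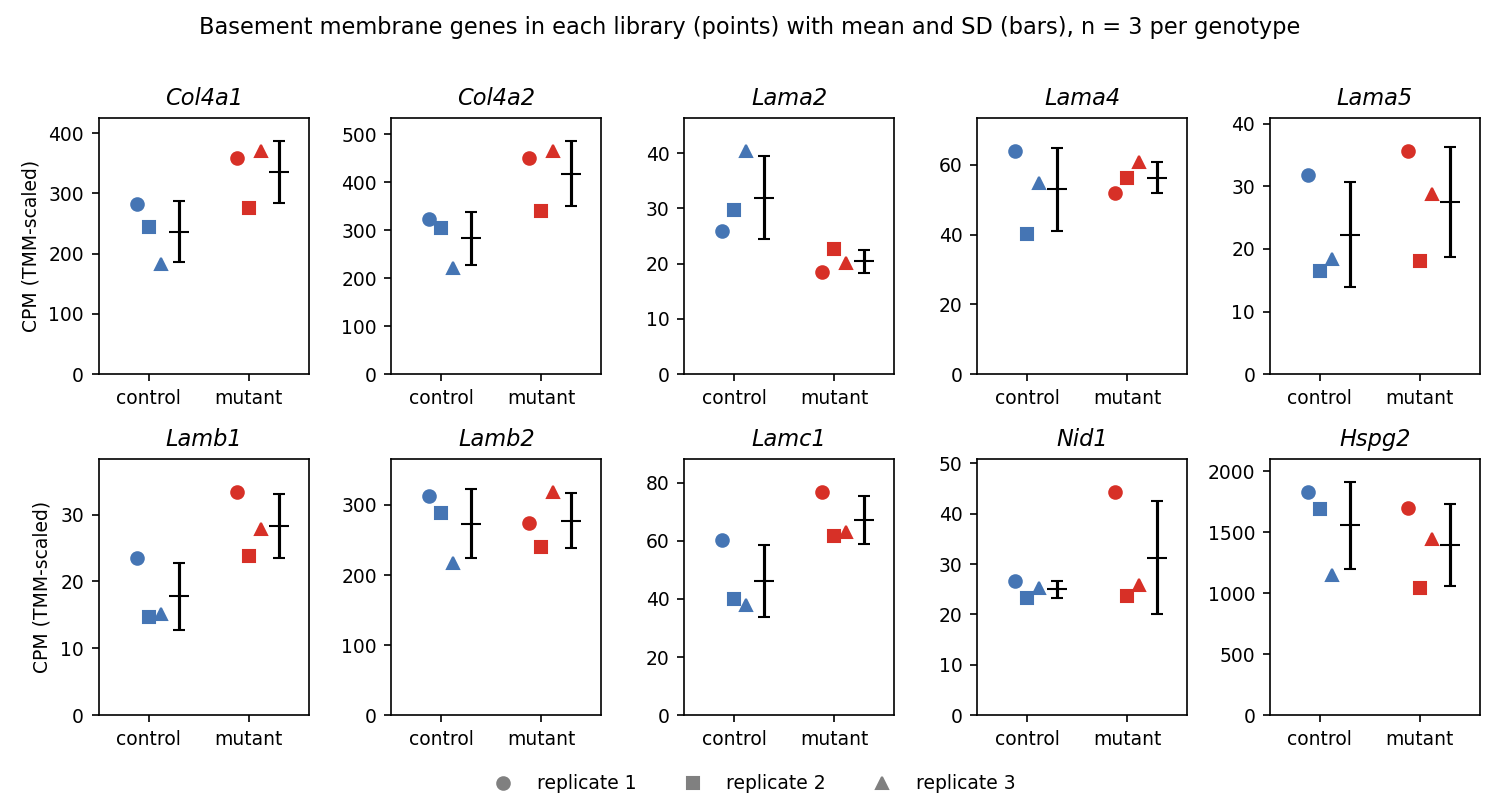
CPM (vertical axes from 0) of each of the 10 genes in each library, with 1 symbol per replicate number and the mean and SD of each genotype in black. Mutant libraries lie above all controls for Col4a2, Lamb1 and Lamc1 and below all controls for Lama2, and control replicate 1 is the highest control for 9 of the 10 genes.

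The log2 fold changes of the laminin chains differed in sign, and none of these genes passed at an adjusted p under 0.05 by edgeR. Exact permutation tests of ratios between laminin chains gave adjusted p-values from 0.25 to 0.7. Lamb1 and Lamc1, the β1 and γ1 chains that most laminins of mesenchymal and endothelial cells contain, were both higher, while Lamb2, the β2 chain, was nearly level and Lama2, the α2 chain, was lower. Lamb1 (chr12:31265234-31329644) was at 23.5, 14.7 and 15.2 CPM in the controls and 33.3, 23.7 and 27.8 CPM in the mutants, with the highest control just under the lowest mutant. Its log2 fold change of 0.67 (SE 0.23, unadjusted p = 0.0162) was the largest of the 10 genes. Lamc1 (chr1:153218922-153332786), the usual γ chain of laminins with these α and β chains, was at 60.3, 40.1 and 38.1 CPM against 76.7, 61.8 and 63.1 CPM. The groups of Lamc1 were again separated by a small gap between control replicate 1 and mutant replicate 2, and the log2 fold change was 0.54 (SE 0.21, unadjusted p = 0.0255). For both genes the unadjusted p was above 0.05 without control replicate 2, control replicate 3 or mutant replicate 1, at most 0.0600 for Lamb1 and 0.0913 for Lamc1.

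Lamb2 (chr9:108479736-108490530), known from the glomerulus, the neuromuscular junction and vessels, was by far the more abundant β chain. It was at 313, 289 and 218 CPM in the controls and 274, 239 and 318 CPM in the mutants, with full overlap and a log2 fold change of 0.02 (SE 0.21, unadjusted p = 0.919). Per kilobase of exon, Lamb1 amounted to 0.0462, 0.0311 and 0.0427 of Lamb2 in the controls and 0.0745, 0.0609 and 0.0537 in the mutants. The log2 ratio of Lamb1 to Lamb2 was thus higher in all 3 mutants than in all controls, by 0.66 on average, with an exact permutation p of 0.1, the smallest that 3 against 3 allows, and 0.25 after Benjamini-Hochberg adjustment over the 5 ratios tested. Both β chains together, set against Lamc1, were lower in all mutants by a log2 difference of -0.51 (exact permutation p = 0.1, adjusted p = 0.25). Lamb2 held most of the β chain counts in that ratio.

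**Figure D3:**
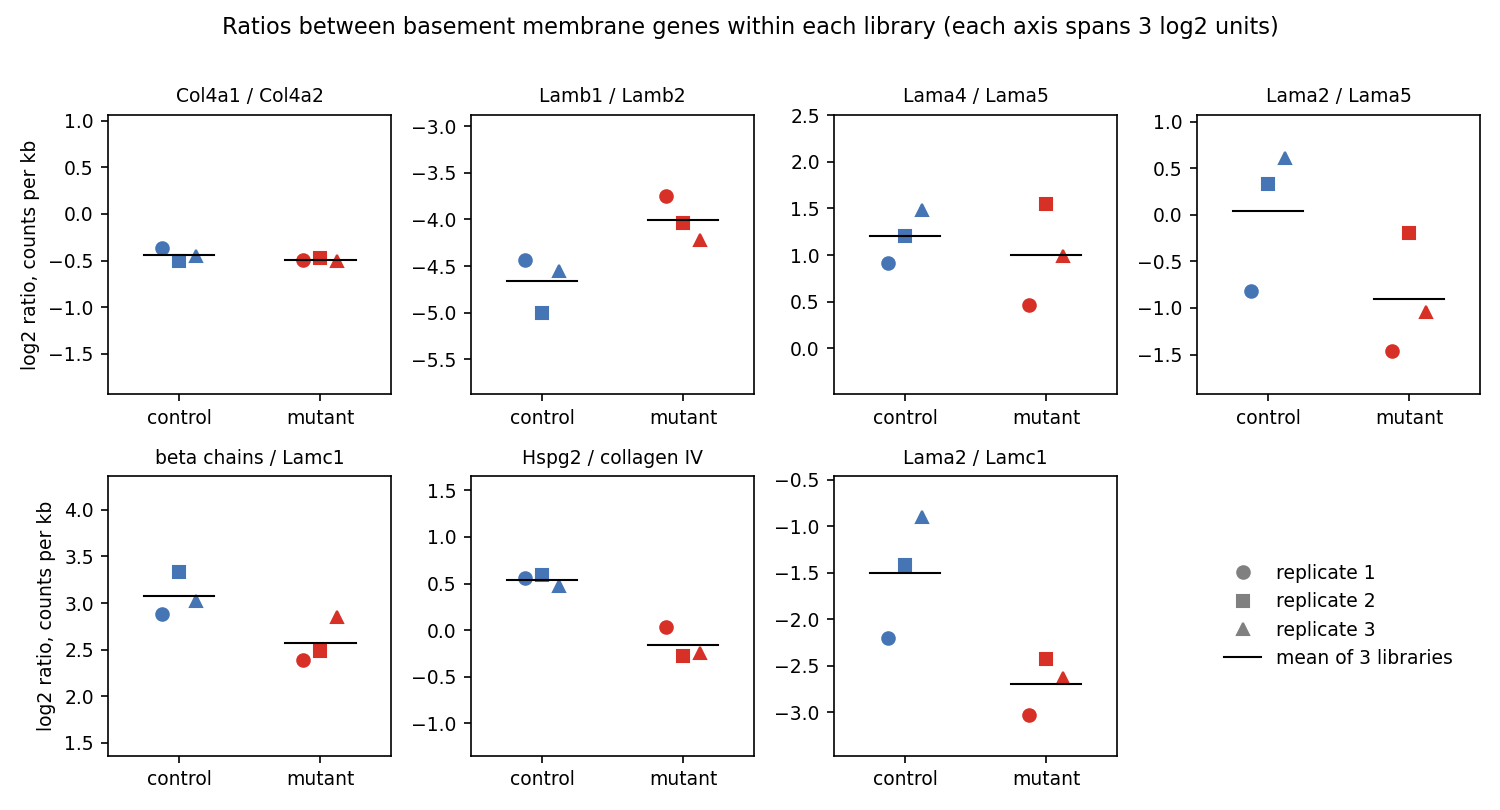
Log2 ratios between members within each library, from counts per kilobase of exon, with 1 point per library, a line at the mean of each genotype and axes that all span 3 log2 units. The log2 ratio of Lamb1 to Lamb2 is higher in all mutants (linear 0.0537 to 0.0745 against 0.0311 to 0.0462). That of Hspg2 to collagen IV is lower in all mutants (means -0.16 against 0.54), while Col4a1 to Col4a2 overlaps between genotypes. The ratios of Hspg2 to collagen IV and of Lama2 to Lamc1 were chosen after the values were seen and were not tested.

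Of the 3 α chains, Lama2 had the lower mean in mutants, and Lama4 and Lama5 did not pass the test. Lama2 (chr10:26980036-27619758), the chain of the laminins around muscle fibres and Schwann cells, was at 25.9, 29.6 and 40.3 CPM in the controls and 18.5, 22.7 and 20.1 CPM in the mutants, so that every mutant lay under every control. Its log2 fold change was -0.65 (SE 0.20, unadjusted p = 0.0103, adjusted p = 0.676), and the call was lost without control replicate 3, the highest control, where the log2 fold change was -0.43 (unadjusted p = 0.0649). Control replicate 1, with by far the highest sum of skeletal muscle markers, had the lowest Lama2 of the controls. Without this library the log2 fold change was -0.75, and the part of skeletal muscle in the Lama2 values was not tested. Schwann cell markers, 8 genes of which 5 had a higher mean in mutants, summed to 250, 1645 and 628 CPM in the controls and 3522, 2448 and 936 CPM in the mutants, and their part in the result was not tested. Antisense genes share exon bases with Lama2 (Gm48084, 631 bases) and with Nid1 (Gm48682, 143 bases) and are not among the counted symbols. The strand setting of the count was not stated, so reads of such partners cannot be told apart from those of Lama2 and Nid1.

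Lama4 (chr10:38965515-39110188), the α4 chain of endothelial and other mesenchymal basement membranes, was the most abundant α chain and did not separate the genotypes. It was at 63.9, 40.2 and 54.8 CPM in the controls and 51.9, 56.3 and 60.7 CPM in the mutants (log2 fold change 0.09, SE 0.19, unadjusted p = 0.659). Lama5 (chr2:180176373-180225859), the α5 chain of epithelia and mature vessels, varied widely within both groups, at 31.9, 16.4 and 18.4 CPM against 35.6, 18.1 and 28.8 CPM (log2 fold change 0.30, SE 0.30, unadjusted p = 0.341). Control replicate 1 stood well above the other controls of Lama5, and without that library the log2 fold change was 0.67 (unadjusted p = 0.0375).
As a share of the 3 α chains per kilobase, Lama2 made up 24.2% ± 6.78 (SD, n = 3) in the controls and 15.1% ± 2.65 in the mutants, Lama4 52.6% ± 2.07 and 56.2% ± 5.49, and Lama5 23.2% ± 5.20 and 28.7% ± 7.86. The share of Lama2 in control replicate 1 (16.4%) fell within the mutant range of 13.3% to 18.2%, so the shares overlapped. By the longest coding transcript in place of all exons, Lama4 made up 62.1% and 67.2% and Lama5 13.8% and 17.4% in controls and mutants. The log2 ratio of Lama2 to Lama5 was lower by -0.94 in mutants and that of Lama4 to Lama5 by -0.20, and neither was separated from the spread between libraries (exact permutation p = 0.2 and 0.7).

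Nid1 and Hspg2 code for the proteins that link the laminin and collagen IV networks, and neither passed the test. Nid1 (chr13:13437551-13512269), coding for nidogen-1, was at 26.6, 23.2 and 25.2 CPM in the controls and 44.3, 23.7 and 25.9 CPM in the mutants. Mutant replicate 1 alone stood above the rest, and the log2 fold change of 0.32 (SE 0.24, unadjusted p = 0.210) was 0.03 without it. Hspg2 (chr4:137468769-137570630) was at 1827, 1693 and 1150 CPM in the controls and 1700, 1040 and 1448 CPM in the mutants, overlapping throughout, with a log2 fold change of -0.16 (SE 0.27, unadjusted p = 0.579).

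Set against collagen IV within the same library, perlecan separated the genotypes. There were 3.01, 3.09 and 2.85 Hspg2 counts per Col4a1 or Col4a2 count in the controls, and 2.10, 1.69 and 1.73 in the mutants. Per kilobase the mean log2 ratio was 0.54 ± 0.06 (SD, n = 3) in the controls and -0.16 ± 0.17 in the mutants, a difference of -0.70, with little spread within either genotype although Hspg2 itself varied widely from library to library. The log2 ratio of Lama2 to Lamc1 also lay lower in all mutants than in all controls, by -1.19. These 2 ratios were chosen after the values were seen and are given without a test.

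Levels differed among the 10 genes far more than between genotypes. In controls, Hspg2 stood at 109 ± 25.1 CPM per kilobase of exon (SD, n = 3), above Lamb2 at 44.9 ± 8.13, Col4a2 at 42.8 ± 8.33 and Col4a1 at 31.7 ± 6.77, whose ranges overlapped from one to the next. Lamc1 followed at 5.58 ± 1.48, with Lama4 at 4.39 ± 0.99 and Nid1 at 3.60 ± 0.25, again overlapping in this order, and Lama2, Lama5 and Lamb1 lay together between 1.79 and 1.96. By this measure, control ranges did not overlap at the gaps under Hspg2, under Col4a1 and under Nid1. In mutants Col4a2 reached 63.1 ± 10.3, Col4a1 44.9 ± 6.86 and Lamb1 2.86 ± 0.49 CPM per kilobase. Lengths matter to this order, since by the longest coding transcript in place of all exons Lama4 stood above Lamc1 (8.76 against 6.05) and Lamb1 above Lama5 (3.08 against 1.95). Lama2 was then at 3.32 and overlapped with Nid1, and the third gap lay under Lamc1.

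**Figure D4:**
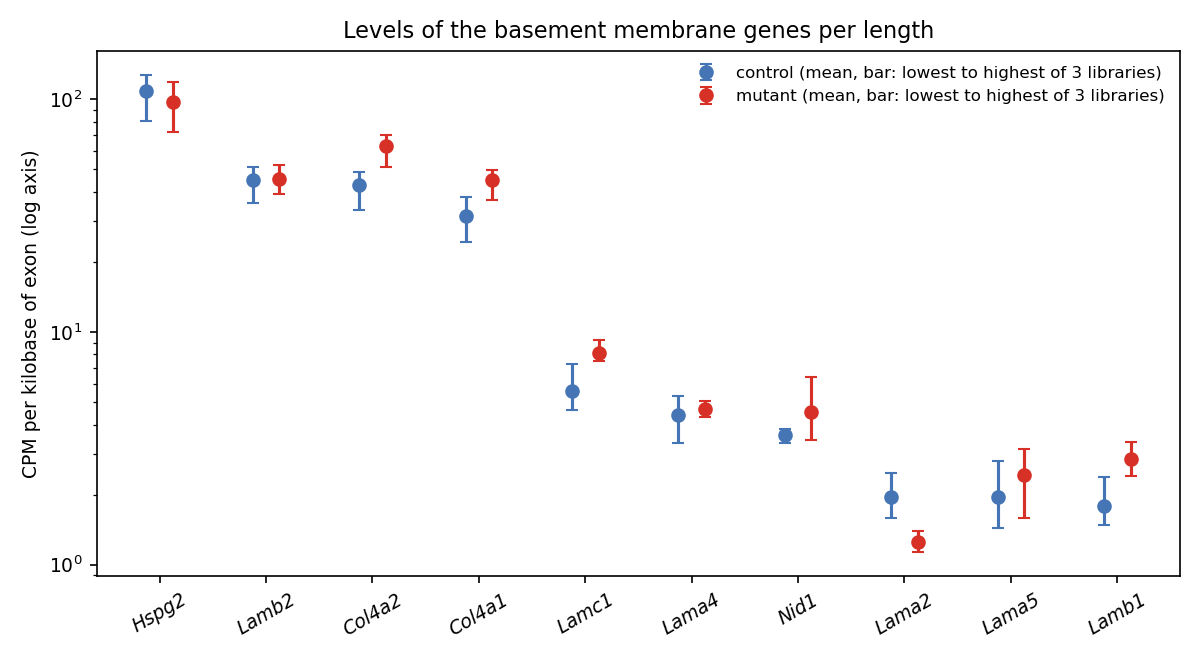
Level of each of the 10 genes in CPM per kilobase of exon, on a log axis, with points at the mean of each genotype and bars from the lowest to the highest of 3 libraries. Hspg2 is highest, Lamb2 and both collagen IV genes follow, and Lama2, Lama5 and Lamb1 are lowest, near 2 CPM per kilobase in controls.

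Blood vessels are a usual source of collagen IV and of laminins with the β1 and γ1 chains. The 14 endothelial markers summed to 585, 357 and 383 CPM in the controls and 541, 541 and 584 CPM in the mutants, and none was listed at 0 in all libraries. Of the 14, 12 had a higher mean in mutants, and their median log2 fold change was 0.34 with all libraries. It was 0.64 when control replicate 1 was left out, 0.18 when replicate 2 of the controls was, and 0.23 when replicate 3 was. Erg, a transcription factor of endothelial cells that chondrocytes can also express, was the marker with an unadjusted p under 0.05, at 41.9 ± 7.67 CPM against 66.6 ± 13.7 (log2 fold change 0.67, unadjusted p = 0.00818). Cldn5, coding for a tight junction protein of endothelial cells, was in contrast below all controls in every mutant (log2 fold change -0.41, unadjusted p = 0.0689). Markers of mural cells, the contractile cells around vessels, summed to 914 to 1020 CPM and 911 to 1249 CPM, with 8 of 9 higher and 0 at an unadjusted p under 0.05. Cspg4, the marker with a lower mean in mutants, had the highest level of this list and weighed most in its sum (517 against 438 CPM). All 3 mutant libraries lay above all controls for 2 of the 9, as for 5.45% of all genes tested. In bulk samples such as these, more or fewer cells of a type and more or less RNA per cell cannot be told apart.

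Divided by the summed endothelial markers of the same library, collagen IV overlapped between genotypes, at 1.04 to 1.54 in the controls and 1.14 to 1.49 in the mutants. The overlap came from control replicate 2 alone (1.54), which lay above every mutant. Control replicates 1 and 3 (1.04 and 1.05) lay under every mutant. Lamc1 overlapped as well, at 0.0994 to 0.112 against 0.108 to 0.142, again through control replicate 2 alone (0.112). Lamb1 stayed higher in all mutants, at 0.0439 to 0.0616 against 0.0396 to 0.0411, and Lama2 stayed lower, at 0.0343 to 0.0419 against 0.0443 to 0.105. These quotients were chosen after the values were seen, and the part of endothelial cells in the results was not tested.

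Markers of other cell types also differed in mean between genotypes. All 12 skeletal muscle markers had a lower mean in mutants, 10 of them at an unadjusted p under 0.05. The median log2 fold change of this list was -3.07, but 1.01 with control replicate 1 left out. Of 11 chondrocyte markers 9 were lower in mutants, 3 of them at an unadjusted p under 0.05 (Col9a2, Col9a3 and Matn3), and their median log2 fold change was -0.30 (-0.19 with control replicate 1 left out and -0.45 with control replicate 3 left out). Of 5 markers of tendon and outer annulus 4 were higher, Tnmd and Thbs4 at an unadjusted p under 0.05, and the median was 0.47, or 0.84 with control replicate 2 left out and 0.27 with mutant replicate 3 left out. All 8 tested markers of red cell precursors and all 8 of neutrophil precursors had a higher mean in mutants (medians 1.001 and 1.005), 1 and 2 of them at an unadjusted p under 0.05. With 1 library left out the median of the red cell list ranged from 0.53 (mutant replicate 2) to 2.10 (control replicate 1), and that of the neutrophil list from 0.22 (mutant replicate 1) to 1.69 (control replicate 3). Of 6 osteoblast markers 4 were higher, Bglap (log2 fold change 1.64, unadjusted p = 0.000415) and Bglap2 at an unadjusted p under 0.05. Of 7 macrophage markers 6 were higher and 1, Cd68, passed that threshold. None of these markers passed at an adjusted p under 0.05 by edgeR, and the part of these cell types in the values of the 10 genes was not tested.

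**Figure D5:**
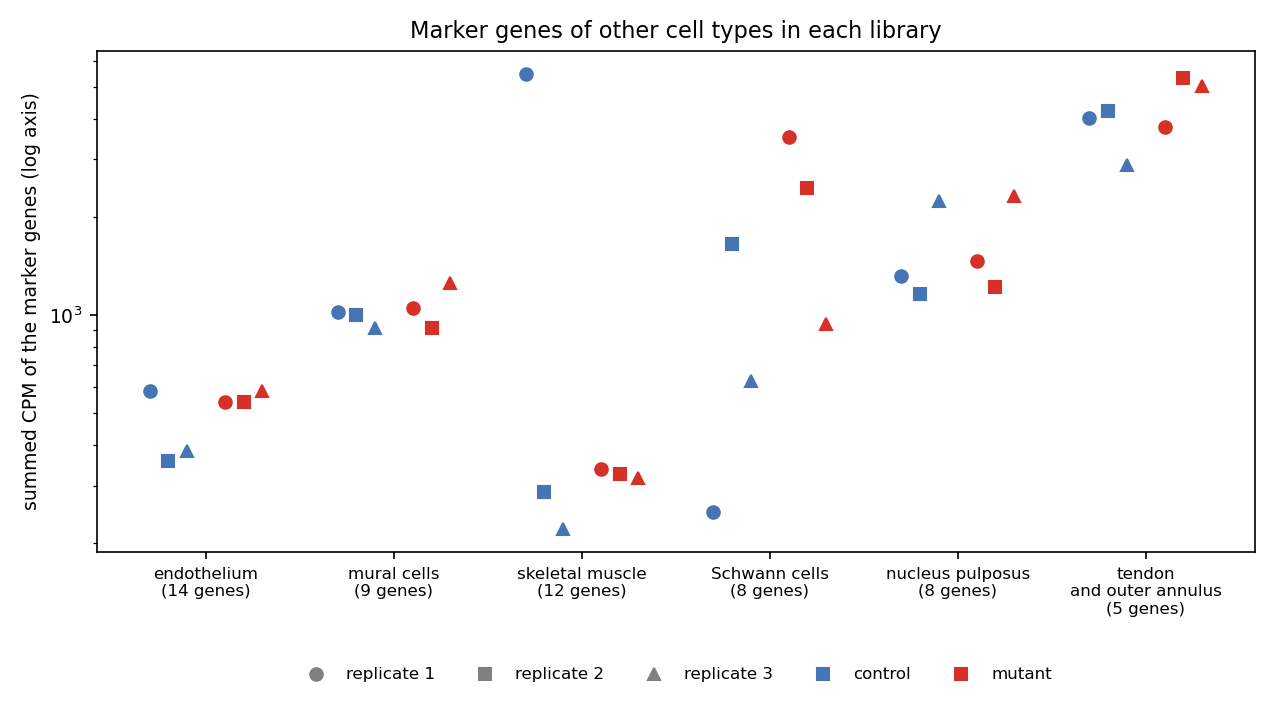
Summed CPM of the marker genes of other cell types in each library, on a log axis, with colours for genotypes and symbols for replicate numbers. Skeletal muscle markers are at 5496 CPM in control replicate 1 and at 220 to 338 CPM in the other 5 libraries, and endothelial markers are at 541 to 584 CPM in the mutants against 357 to 585 CPM in the controls.

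Other genes of the basement membrane gave no common direction. Of 19 tested, 9 had a higher and 10 a lower mean in mutants, their median log2 fold change was -0.11 (0.10 without mutant replicate 1), and 1 was higher and 1 lower at an unadjusted p under 0.05. Col15a1, a collagen at the outer side of basement membranes of vessels and muscle, was at 504, 607 and 384 CPM in the controls and 695, 779 and 920 CPM in the mutants, without overlap (log2 fold change 0.68, SE 0.23, unadjusted p = 0.0151). Divided by endothelial markers, Col15a1 overlapped between genotypes (0.861 to 1.70 against 1.28 to 1.58). Hmcn1, coding for the large matrix protein hemicentin-1, was at 11.3 ± 6.76 CPM (SD, n = 3) in the controls and 5.54 ± 1.56 CPM in the mutants (log2 fold change -1.03, unadjusted p = 0.0378), with overlap. Nid2, the second nidogen, was at 325, 332 and 217 CPM in the controls and 324, 164 and 195 CPM in the mutants, with overlap (log2 fold change -0.36, unadjusted p = 0.230).

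Of 11 receptors for laminin and collagen IV, Gpr126 itself among them and counted as higher, 8 had a higher mean in mutants and 0 an unadjusted p under 0.05 by edgeR, and the median log2 fold change was 0.10 (-0.04 without mutant replicate 3). Itgb1, the β1 chain that pairs with the integrin α chains of this list, was at 162, 166 and 174 CPM in the controls and 194, 189 and 194 CPM in the mutants, without overlap (log2 fold change 0.20, unadjusted p = 0.240). Ddr1, coding for a collagen receptor kinase, overlapped between genotypes, at 129 ± 22.0 CPM (SD, n = 3) and 134 ± 35.9 CPM (log2 fold change 0.06, unadjusted p = 0.809). Dag1, coding for dystroglycan, the receptor of laminin and perlecan on muscle and Schwann cells, was at 108, 95.0 and 95.5 CPM against 136, 109 and 121 CPM, also without overlap (log2 fold change 0.29, unadjusted p = 0.113).
Of 11 genes that modify, fold or crosslink collagen IV, 10 had a higher mean in mutants and 1 had an unadjusted p under 0.05, and the median log2 fold change was 0.16, or 0.02 without control replicate 3. The 1 gene was Loxl2, the lysyl oxidase that crosslinks collagen IV, at 341, 267 and 208 CPM against 346, 535 and 358 CPM (log2 fold change 0.60, unadjusted p = 0.0366). Of 5 proteases and glycosidases that cut basement membrane, 4 were higher, and Mmp3, stromelysin-1, was at 5.24, 9.55 and 5.16 CPM in the controls and 19.8, 13.5 and 13.1 CPM in the mutants, without overlap (log2 fold change 1.22, unadjusted p = 0.00305). None of the genes named here passed at an adjusted p under 0.05 by edgeR.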

How the data were processed

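Intervertebral discs were frozen, pulverised and pooled, poly(A) RNA was made into paired-end libraries, and the authors deposited raw counts per gene symbol for each of the 6 libraries. The submitters' processing notes name STAR 2.5.3a, HTSeq and DESeq2 with mm10, whereas the methods of the study name HISAT2, StringTie and Ballgown. The strand setting is not given in the sources used here. Of the reads, 40.4% to 44.2% fell on genes, 39.4% to 43.3% on no gene and 12.0% to 18.9% were not aligned, and only the first entered library sizes. A deposited table of fold changes, p-values and normalized counts was not used.

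Genotypes were tested on the counts by the quasi-likelihood method of edgeR 4.0.16 (R 4.3.3), after TMM scaling and filterByExpr with a count minimum of 10. The fit covered 16152 genes, and p-values were adjusted over these by Benjamini-Hochberg. CPM used TMM-scaled library sizes. Ratios used exon lengths of GENCODE M21 and a two-sided exact permutation test, 5 in all. The script was tested on simulated data. Alternatives were DESeq2 1.42.0, limma-voom 3.58.1 with quality weights, RLE size factors, no filter, a replicate block and leaving out each library.

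The members, gene lists and tests were chosen with earlier results of these data known. Named genes are the members, Gpr126, antisense genes of members and, of other lists, those at an unadjusted p under 0.05 or, where there were none, the 2 with the highest mean CPM. Nid2, Dag1, Cldn5, Col2a1 and Noto were added after their values were seen. For lists of other cell types counts are given, and not every gene that this rule covers is named.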

Additional observations from a re-analysis of the deposited data

How the results depend on the processing

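The 10 genes held 4 higher and 1 lower at an unadjusted p under 0.05 by edgeR, and also with RLE size factors, without a filter on low counts, by DESeq2 and by limma-voom. With the replicate block 3 were higher and 1 lower, Col4a1 being at an unadjusted p of 0.0547, and 1002 genes were called in all in place of 1164. Deviations of libraries with the same number correlated at 0.16, -0.13 and 0.10, and those with different numbers at -0.265 to 0.179. Whether the numbers pair the samples is not stated in the labels, and such correlations cannot exclude it. With 1 library left out, 0 to 5 were higher and 0 to 1 lower: 1 higher without control replicate 2, 0 higher and 0 lower without control replicate 3, 0 higher without mutant replicate 1, 2 higher without mutant replicate 3. The median log2 fold change of the 10 genes ranged from 0.14 to 0.53. None of the 10 passed at an adjusted p under 0.05 under any alternative, where the smallest adjusted p was 0.0972, for Lamb1 without control replicate 1. The genes with values near 0 changed sign: Lama4 ranged from -0.08 to 0.26, Lamb2 from -0.11 to 0.15 and Hspg2 from -0.33 to 0.029, and the log2 ratio of Lama4 to Lama5 from -0.48 to 0.068. The signs of Col4a1, Col4a2, Lama2, Lamb1 and Lamc1 were kept with any library left out. Over all genes, DESeq2 called 58 at an adjusted p under 0.05, limma-voom 0, the unfiltered fit 245 of 26418 and the main one 1, and 31 without control replicate 1. The cause was not tested. The smallest difference that 3 pools per genotype could detect was not estimated.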

Other observations

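The libraries that were high or low tended to be so for many of the 10 genes at once. Control replicate 1 was the highest control for 9 genes and the lowest for Lama2, control replicate 3 was the lowest control for 5 (Col4a1, Col4a2, Lamb2, Lamc1 and Hspg2) and the highest for Lama2, and mutant replicate 2 was the lowest mutant for 8, with Lama2 highest there. Lama2 was therefore opposite to most of the other members in these 3 libraries as well as between genotypes.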
